A study of Mus musculus with 7 samples.

Results

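The genes described here are Olig1, Olig2 and other genes of the early oligodendrocyte lineage, namely Sox10, Pdgfra, Sox8, Gpr17, Bcas1, Omg and Zfp488. They were chosen by name as a list of 9, and their probes were found by matching the transcript accession of each array probe to RefSeq. Of the 9 genes, 7 had a named probe, among 17145 named genes on the array; Sox10 and Zfp488 had none under this match and were not analysed here. The 7 genes carried 12 probes, and all 7 passed the filter on dim probes and were tested.

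Single-colour Agilent arrays measured messenger RNA in the subpallium (the septum together with the ganglionic eminences) at E12.5, and each array held the RNA of 1 female embryo of the CD-1 strain. The labels name 4 arrays Control, with no allele given, and 3 arrays Otx2 cKO, embryos with an Otx2 allele that is floxed and the forebrain driver RxCre; per the series description this driver spares a caudal dorsomedial domain with the choroid plexus and cortical hem. Litter 2 held 2 embryos of each label (controls 2 and 3, cKO 1 and 3), and the other 3 embryos each came from a litter of their own. Controls 1 and 2 shared slide 1 with cKO 1, and the remaining arrays were on slide 2. The comparison asks how these genes differ when Otx2, a homeodomain transcription factor of the anterior brain, is targeted in the forebrain.

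Oligodendrocytes, the myelin-forming cells of the brain, arise from precursors that in the forebrain first appear in ventral progenitor zones such as the medial ganglionic eminence. The basic helix-loop-helix factors Olig1 and Olig2 mark these ventral progenitors before any precursor forms, and Sonic hedgehog signalling induces Olig2. Committed precursors then switch on Sox10 and the PDGF receptor Pdgfra, and Gpr17 and Bcas1 mark later steps towards myelination. None of these genes is exclusive to the lineage: Pdgfra is also strongly expressed in mesenchyme and Omg in neurons.

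In the arrays labelled Otx2 cKO, Olig1 fell 2.70-fold, was below every control in all 3 embryos and was the 1 member past the threshold. Olig2 was 1.67-fold lower in the same arrays, also without overlap with the controls, but missed the threshold. Bcas1, Gpr17 and Omg had lower means and did not pass, Pdgfra differed widely between arrays, as did markers of mesenchyme, and the Sox8 probes had differences of opposite sign. Of the 7 genes, 1 was lower and 0 were higher at an adjusted p under 0.05 (limma, Benjamini-Hochberg over 13341 genes). Over all genes tested, 0.12% were lower and 0.0899% higher by the same rule, which is 16 and 12 genes (17 and 7 under quantile normalization).

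The sequence before the annotated start of Olig2 is shown because Olig2 and its neighbour Olig1 were lower together and OTX proteins bind DNA through a bicoid-class homeodomain. The 250 bases before the start are from RefSeq (GRCm38.p6, chr16:91225300-91225549, plus strand), with matches to CCAAT (as its reverse complement ATTGG) and to TATAAA in capitals. The window of Pdgfra (GRCm38.p6, chr5:75152001-75152250, plus strand) follows for contrast, with the 1 match to the E-box CATCTG in capitals. Of the 9 genes, 4 had an entry in the promoter table: Olig2, Pdgfra, Sox8 and Zfp488.
Olig2: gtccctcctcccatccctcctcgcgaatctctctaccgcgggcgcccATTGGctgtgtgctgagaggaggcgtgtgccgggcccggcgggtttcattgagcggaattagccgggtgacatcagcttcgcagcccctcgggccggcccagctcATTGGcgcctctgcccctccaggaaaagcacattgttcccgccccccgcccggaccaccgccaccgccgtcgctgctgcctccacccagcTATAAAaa
Pdgfra: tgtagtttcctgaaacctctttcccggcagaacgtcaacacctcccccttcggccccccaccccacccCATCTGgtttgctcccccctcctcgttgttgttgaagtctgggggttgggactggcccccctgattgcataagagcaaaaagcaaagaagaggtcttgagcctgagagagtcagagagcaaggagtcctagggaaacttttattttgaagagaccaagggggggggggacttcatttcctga

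Both strands were searched. In the Olig2 window the bicoid-type letters TAATCC, the homeodomain letters TAATTA and 3 E-boxes, of the letters CAGCTG, of the letters CATCTG and of the letters CATATG, had 0 matches. Over 32536 distinct windows of the same length, 6.25% held TAATCC, 4.84% TAATTA, 13.1% CAGCTG, 14.4% CATCTG and 3.42% CATATG. The Pdgfra window held CATCTG once, 182 bases before the start, and 0 matches to the others. The letters CCAAT and TATAAA were searched after the sequence had been read. Olig2 held CCAAT at 203 and 98 bases before the start, where 33.8% of windows held it at least once. It held TATAAA at 8 bases before the start, against 12.3% of windows. These letters describe the windows and say nothing of any factor.

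The targeted gene was read first as a check of the labels. The Otx2 probe had log2 signals between 0.13 and 0.50 in the controls and between 1.72 and 2.27 in the arrays labelled cKO, so that it was higher where the label says it was deleted (difference 1.52 ± 0.17 SE, limma adjusted p = 0.0288). Where this probe lies relative to the floxed part of the gene is not known from the labels, and outside that part it would be no check at all. Every direction below therefore rests on the labels. Values are listed in the order of the replicate numbers. Throughout, a level is the log2 of the processed signal relative to the array's 75th percentile, and a difference is cKO-labelled minus control on that scale. Levels of different probes are not comparable with each other.

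Olig1 encodes a basic helix-loop-helix factor that acts with Olig2 in oligodendrocyte specification and maturation. Its single probe (transcript NM_016968) had log2 levels of -0.51, -0.52, -0.57 and -0.42 in the 4 controls and -2.03, -1.74 and -2.05 in the 3 cKO-labelled arrays. The controls lay within a narrow band and all 3 cKO-labelled arrays lay far below it. The difference was -1.43 ± 0.099 (SE, n = 4 and 3; limma adjusted p = 0.0165). Among all genes with a negative difference, Olig1 had the smallest p (rank 1). The difference was -1.51 within slide 1, -1.40 within slide 2 and -1.49 within litter 2, where 2 embryos of each label shared a litter. The call did not hold within slide 2 or litter 2 (limma adjusted p = 0.277 and 0.253) or with the replicate block (0.333). Slide 1 has 1 cKO-labelled array, so only its difference is given. Litter as a block (0.253) is no separate result. The other litters held 1 embryo each, so it rests on litter 2 alone, with the same difference and SE. With slide as a block the call held (0.0313). It also depended on single arrays. Without control replicate 2, 3 or 4 or cKO replicate 3 the adjusted p was 0.0573, 0.0989, 0.0679 and 0.0607, with differences between -1.46 and -1.38, and without any other 1 array it stayed at 0.0339 or below.

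Olig2 is the partner factor required to specify oligodendrocyte precursors and is also present in ventral progenitors that make neurons. Its brighter probe (transcript NM_016967) had log2 levels of 1.55, 1.68, 1.84 and 1.67 in the 4 controls. In the 3 cKO-labelled arrays the levels were 0.95, 0.80 and 1.08. The groups did not overlap, and the difference of -0.74 ± 0.10 missed the threshold (limma adjusted p = 0.0737, unadjusted p = 0.000193). It ranked 22 by p among the genes with a negative difference. The value was -0.66 within slide 1, -0.81 within slide 2 and -0.75 within litter 2. It passed the threshold with normexp background, in the authors' value table, with a variance trend and with array weights (adjusted p = 0.0362, 0.0366, 0.0154 and 0.044), with differences of -0.74, -0.76, -0.74 and -0.70.

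A second, much dimmer Olig2 probe gave the same sign. It was well above background on all 4 controls and on 0 of the 3 cKO-labelled arrays, so its value of 2.07-fold lower is a detection bound. Its sampling error (limma SE 0.16 on the log2 scale) goes both ways, so a smaller difference was not excluded. The bound sets the control mean against the mean of each dim array's floored signal or own detection limit, whichever was higher. Here the floored signal was higher in each, so the bound equals the plain difference of the means. Means after flooring were -6.20 ± 0.23 (SD, n = 4) in controls and -7.25 ± 0.23 (SD, n = 3) in cKO-labelled arrays. The value of cKO replicate 2 was the floor of -7.49 itself. In the fit over 19606 named probes its adjusted p was 0.0983; that fit called 0.0867% of probes lower and 0.0561% higher.

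The difference of the single Olig1 probe was larger than that of the brighter Olig2 probe, which is used below. The mean of both Olig2 probes differed by -0.89. The dimmer Olig2 probe gave only a bound, so a larger Olig2 difference was not excluded. Within each array the Olig1 value minus the Olig2 value was -2.07, -2.19, -2.42 and -2.08 in the 4 controls and -2.98, -2.55 and -3.12 in the 3 cKO-labelled arrays. All 3 cKO-labelled arrays were below all controls, and the difference between the group means was -0.69. The exact permutation test over the 35 splits of the arrays gave a two-sided p = 0.0571, the smallest that this test can give with 4 against 3 arrays. The group difference was -0.75 within litter 2, -0.58 with normexp background and -0.68 in the authors' value table.

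The genes beside this pair on chromosome 16 were read in the order of the RefSeq gene table. This stretch holds 9 genes, of which 7 were tested, and the 5 tested genes other than the Olig pair had smaller differences than either. On the Olig2 side, Eva1c differed by -0.07 ± 0.13 and Cfap298 by 0.19 ± 0.14. On the Olig1 side, the interferon receptor genes Ifnar2, Ifnar1 and Ifngr2 differed by -0.15 ± 0.13, -0.04 ± 0.16 and -0.28 ± 0.12. None of these 5 passed (limma adjusted p 0.457 to 0.947). The gene 4932438H23Rik was well above background on 2 arrays and was not tested, and the long non-coding RNA gene Gm52261 between Olig2 and Olig1 had no named probe.

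**Figure D1:**
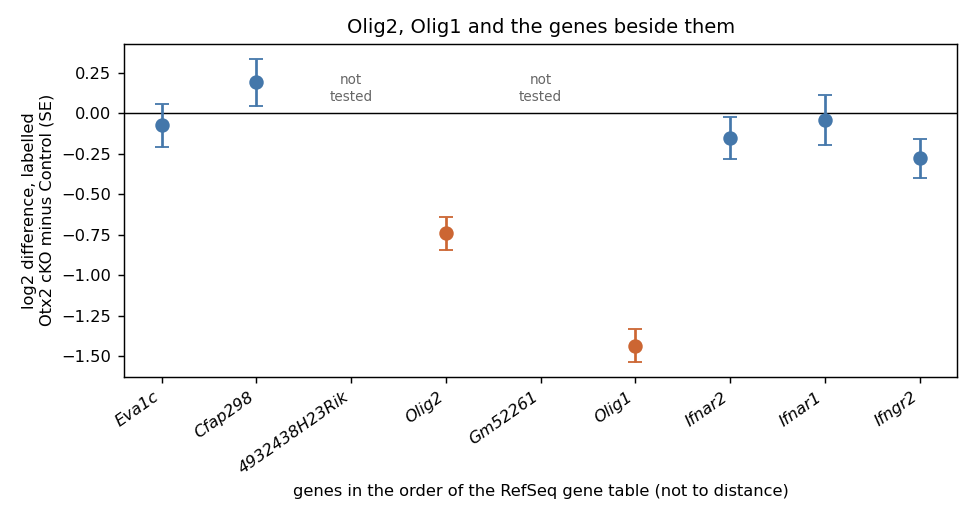
Log2 difference (cKO-labelled minus control, limma SE as bars) of Olig2, Olig1, the gene between them and the nearest genes with a named probe on each side. Genes are in gene order and not to distance, and flanking genes without a named probe are left out. Olig2 (-0.74) and Olig1 (-1.43) lie below the other 5 tested genes, which range from -0.28 to 0.19.

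Pdgfra encodes the receptor through which PDGF drives precursor proliferation. The mean of its 10 spots of 1 probe had log2 levels of -1.10, -1.72, -1.12 and -0.98 in the 4 controls and -2.71, -0.39 and -2.13 in the 3 cKO-labelled arrays. Among the cKO-labelled arrays, replicates 1 and 3 were the lowest of the 7 arrays and replicate 2 was the highest. The groups overlapped, and the difference was -0.52 ± 0.53 (limma adjusted p = 0.759). It was -1.30 within slide 1, -0.22 within slide 2 and -1.001 within litter 2. Without cKO replicate 2 it was -1.19, and without cKO replicate 1 it was -0.03, neither past the threshold. A second Pdgfra probe was well above background on 0 arrays.

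The median of mesenchyme and pericyte markers moved with Pdgfra, though not every marker did. The median of the 12 tested markers, relative to their control means, was 0.46, -2.01, 0.60 and 0.88 in the 4 controls and -1.58, 2.08 and -0.95 in the 3 cKO-labelled arrays. The summed level of the 10 markers measured on all arrays, in multiples of the array's 75th percentile, ran from 2.67 to 22.6 in controls and from 2.76 to 44.2 in cKO-labelled arrays. Lum, a collagen-binding proteoglycan of connective tissue, was at the lower limit in control replicate 2 and cKO replicate 1. The pericyte marker Rgs5, named after its values were seen, had levels of -0.69, -1.36, -1.29 and -0.66 in the 4 controls and -0.84, -1.34 and -2.30 in the 3 cKO-labelled arrays, so it was within the control range where Pdgfra was lowest and where it was highest. Over the 7 arrays Pdgfra and the marker median had a Pearson r of 0.89 and a Spearman rho of 0.86, and r was 0.99 over the 5 arrays left without control replicate 2 and cKO replicate 1. These arrays share litters and slides, and the part of mesenchyme in the Pdgfra, Olig1 and Olig2 values was not tested. For Olig1 and Olig2 the r with the marker median over the 7 arrays was 0.15 and -0.06. Both genes differ between the labels, and that gap weighs on an r over all arrays. For deviations from the group means, r with Pdgfra was 0.86 for Olig1 and -0.48 for Olig2. The r of such deviations with the marker median was not computed. In cKO replicate 2, the array with the highest mesenchyme median, the Olig1 level was -1.74. That was below all controls and the highest of the 3 cKO-labelled arrays, with -2.03 in replicate 1 and -2.05 in replicate 3.

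**Figure D2:**
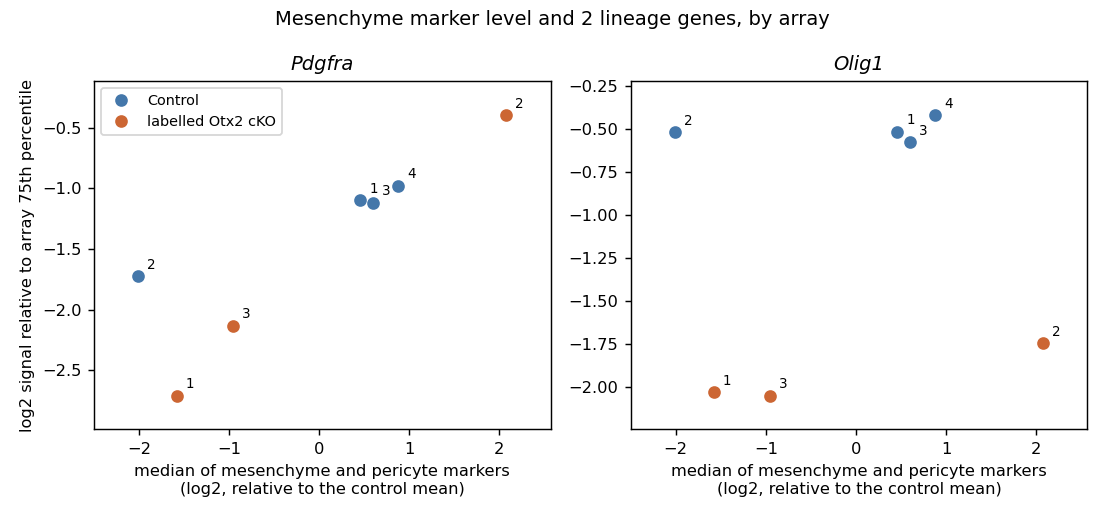
Level of Pdgfra (left) and Olig1 (right) on each array against the median of the mesenchyme and pericyte markers on that array, both in log2; points are arrays, numbered by replicate. Pdgfra rises with the marker median from cKO replicate 1 (-2.71) to cKO replicate 2 (-0.39). Olig1 is below all controls in all 3 cKO-labelled arrays, at -2.03, -1.74 and -2.05, where the marker medians are -1.58, 2.08 and -0.95.

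The other PDGF genes showed no called difference. Of the ligand genes Pdgfa, Pdgfb, Pdgfc and Pdgfd and the receptor gene Pdgfrb, all 5 were tested and 0 passed in either direction (limma, 0 lower and 1 higher at an unadjusted p under 0.05), with a median of -0.04. The smallest p values were those of Pdgfd, at 1.51 ± 0.50 and well above background on 4 arrays, and Pdgfrb, the pericyte receptor, at -0.41 ± 0.41. Their adjusted p values were 0.354 and 0.751.

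Gpr17 encodes a G protein-coupled receptor that marks precursors committed to differentiation. Its bright probe had log2 levels of -1.23, -0.66, -0.61 and -0.58 in the 4 controls and -1.61, -1.25 and -1.05 in the 3 cKO-labelled arrays. Control replicate 1 lay apart from the other controls, inside the cKO-labelled range. The difference was -0.53 ± 0.20 (limma adjusted p = 0.413), and -0.69 without control replicate 1. It was -0.67 within slide 1 and -0.55 within slide 2. The second Gpr17 probe was also well above background on 0 arrays.

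Bcas1 encodes a protein of oligodendrocytes that are starting to myelinate. The brighter probe had log2 levels of -3.22, -2.76, -2.88 and -3.58 in the 4 controls and -3.32, -4.88 and -4.67 in the 3 cKO-labelled arrays. Replicates 2 and 3 were below all controls and replicate 1 was within their range, and the difference was -1.18 ± 0.40 (limma adjusted p = 0.371). It was -0.33 within slide 1, whose only cKO-labelled array is replicate 1, and -1.55 within slide 2. The dimmer probe was well above background on all 4 controls and on 1 cKO-labelled array. Its means were -6.21 ± 0.19 (SD, n = 4) and -6.81 ± 0.19 (SD, n = 3), with all 3 cKO-labelled arrays below the controls (difference -0.59 ± 0.14, limma adjusted p over probes = 0.257).

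Omg encodes the oligodendrocyte myelin glycoprotein, which neurons make as well. Its probe had log2 levels of -1.28, -1.25, -1.33 and -0.93 in the 4 controls and -1.41, -2.14 and -1.82 in the 3 cKO-labelled arrays. The groups did not overlap, although cKO replicate 1 lay only just below the lowest control. The difference was -0.59 ± 0.19 (limma adjusted p = 0.345), with -0.14 within slide 1, -0.85 within slide 2 and -0.32 within litter 2. The 8 neuronal markers tested had a median difference of -0.09, with 0 past the threshold (limma; 2 lower and 0 higher at an unadjusted p under 0.05), and Tubb3 and Stmn2 differed by -0.35 ± 0.094 and -0.26 ± 0.10. The per-array median of these markers was lowest in cKO replicate 2, at -0.25 relative to their control means, where Omg was lowest too. The part of neuronal content in Omg was not tested.

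**Figure D3:**
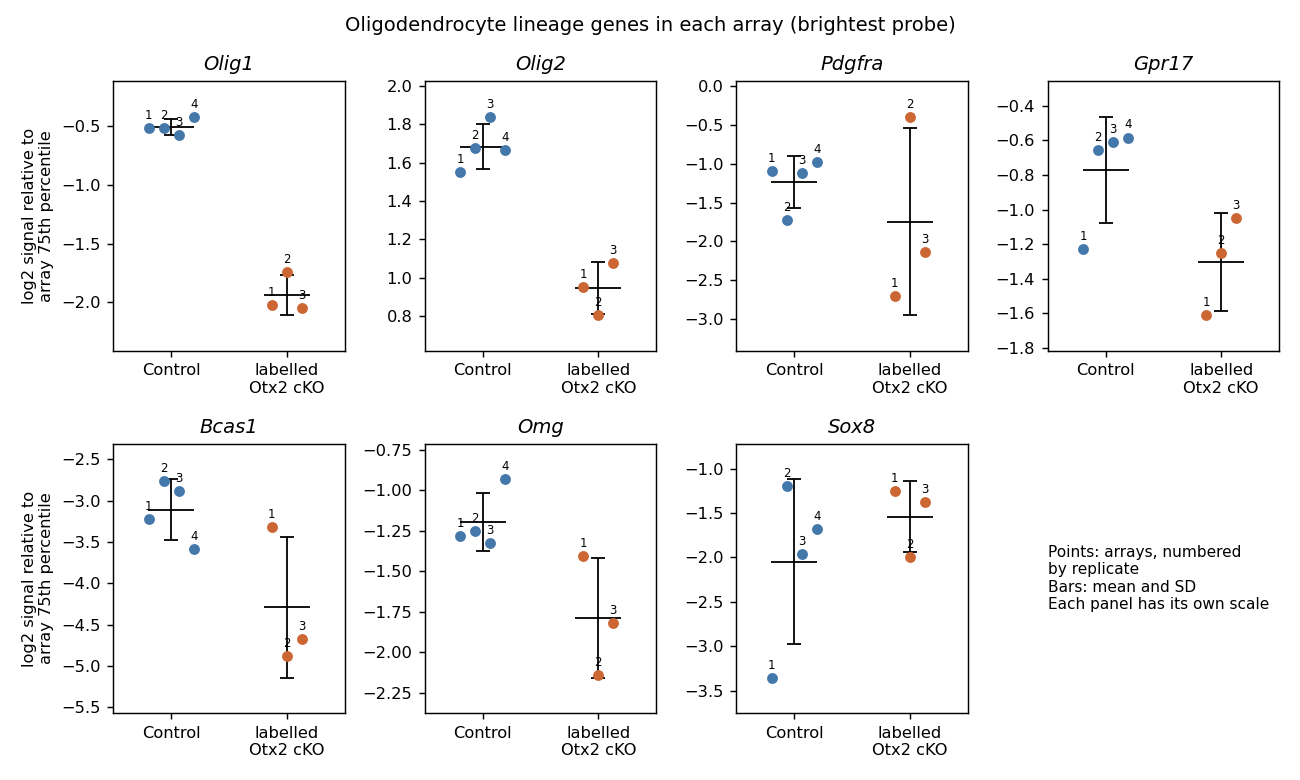
Log2 level of the brightest probe of each of the 7 genes on each array, by group; points are arrays numbered by replicate, bars the mean and SD, and each panel has its own scale. Olig1, Olig2 and Omg separate the groups, while cKO replicate 1 of Bcas1 and control replicate 1 of Gpr17 fall among the arrays of the other label and cKO replicate 2 of Pdgfra lies above all controls.

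Sox8 encodes a SoxE factor that acts beside Sox10 in the lineage. Its brighter probe had log2 levels of -3.35, -1.20, -1.96 and -1.68 in the 4 controls and -1.25, -1.99 and -1.37 in the 3 cKO-labelled arrays. The controls spanned the whole cKO-labelled range, and the difference was 0.51 ± 0.50 (limma adjusted p = 0.747). Without control replicate 1, the lowest array, it was 0.07, and it was 1.03 within slide 1, which holds that array, and 0.13 within slide 2.

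The dimmer Sox8 probe, assigned to the same transcript, was far steadier. Its levels were -2.35, -2.31, -2.50 and -2.35 in the 4 controls and -2.61, -2.99 and -2.55 in the 3 cKO-labelled arrays. All 3 cKO-labelled arrays were below all 4 controls, and the difference was -0.34 ± 0.12 (limma adjusted p over probes = 0.408). The direction of Sox8 therefore depends on the probe, and the mean of both differed by 0.08. The SDs among controls were 0.93 for the brighter and 0.085 for the dimmer probe.

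**Figure D4:**
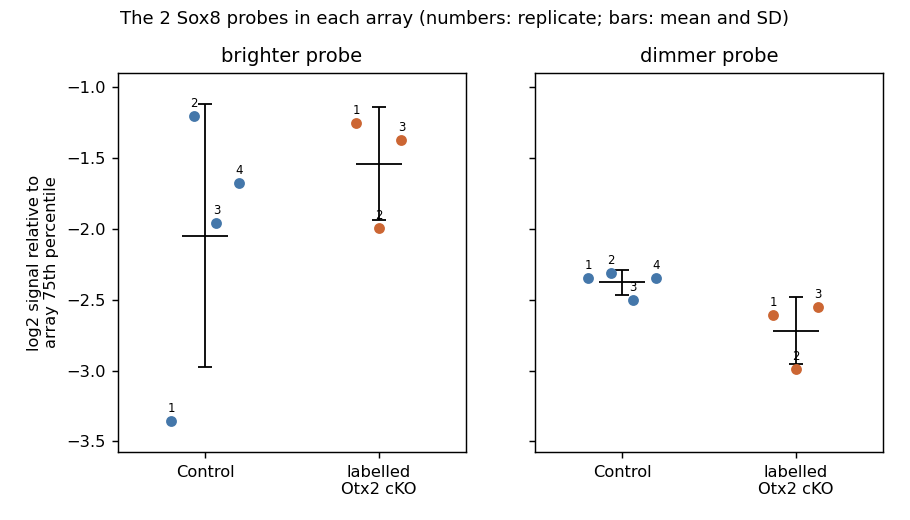
Log2 level of the brighter (left) and dimmer (right) Sox8 probe on each array, on a shared axis; points are arrays numbered by replicate, bars the mean and SD. Control replicate 1 is lowest on the left (-3.35) but among the other controls on the right (-2.35).

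Read together, 6 of the 7 genes had a negative difference on their brightest probe, as did 45.8% of all genes tested. At an unadjusted p under 0.05, 5 of the 7 were lower and 0 higher, against 6.78% and 4.3% of all genes. In 3 of the 7, Olig1, Olig2 and Omg, all cKO-labelled arrays lay below all controls, as in 7.26% of all genes, and in 0 of the 7 did they all lie above, as in 5.45%. The median difference of the 7 was -0.59, against 0.02 over all genes. The list was drawn up with earlier results of these arrays known, so these shares are a description. The median of the 7 genes per array, relative to their control means, was -0.11, -0.007, 0.11 and 0.19 in the 4 controls and -0.73, -0.88 and -0.62 in the 3 cKO-labelled arrays. In tissue samples of this kind, fewer cells of a type and less RNA per cell cannot be told apart.

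**Figure D5:**
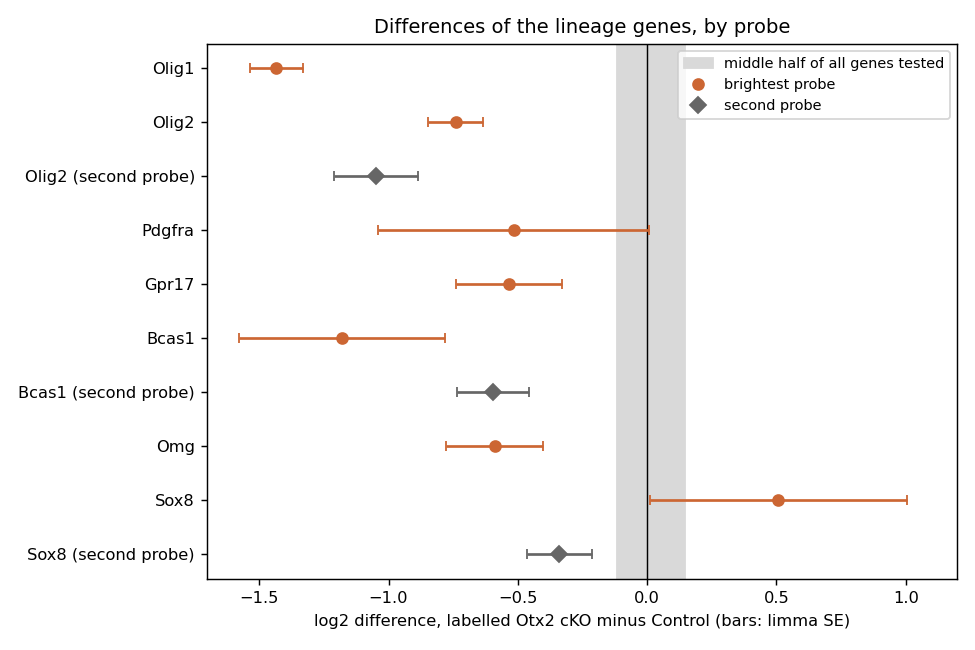
Log2 difference (cKO-labelled minus control, limma SE as bars) of each tested probe of the 7 genes, with the range between the quartiles of all genes tested shaded. The 8 probes other than those of Sox8 lie at or below -0.52, and the Sox8 probes lie at 0.51 and -0.34.

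Other genes of the lineage were read from a list of 24, of which 20 were tested, 3 were under the background filter and 1 had no named probe. None of the 20 passed in either direction (limma; 3 lower and 2 higher at an unadjusted p under 0.05), and the median was -0.07, with 11 of the 20 negative. The smallest p values belonged to Nkx2-2, a homeobox gene of ventral progenitors and differentiating precursors, and to Lhfpl3, a gene of precursor cells. Nkx2-2 differed by -1.58 ± 0.37, was well above background on 5 arrays and was at the lower limit in cKO replicates 1 and 3. Its levels were low in the controls too, from -6.26 to -5.04. Lhfpl3 differed by -0.94 ± 0.23, and the limma adjusted p was 0.259 for both genes. Cspg4, which encodes the NG2 proteoglycan of precursors and pericytes, had levels of -0.70, -0.78, -0.78 and -0.91 in the 4 controls and -1.58, -1.03 and -1.74 in the 3 cKO-labelled arrays. Its difference was -0.66 ± 0.17 (limma adjusted p = 0.278) and its groups did not overlap; the gene is also on the list of mesenchyme and pericyte markers.

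The genes of myelin and myelinating cells named next were chosen after their values were seen. Mog, a surface protein of myelin, was well above background on 0 arrays, Opalin on 1 and Enpp6 on 2. Mbp, myelin basic protein, differed by 0.04 ± 0.096 (limma adjusted p = 0.906). Neural crest and Schwann precursor markers, cells that also use Sox10, were mostly dim: 5 of 8 were under the filter, and Erbb3 and Cdh19 were well above background on 0 arrays.

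The genes that act before Olig2 showed no called difference. The list of Sonic hedgehog and ventral progenitor genes held 17, of which 15 were tested and 0 passed (limma; 0 lower and 0 higher at an unadjusted p under 0.05), with a median of 0.13. The smallest p values were those of Smo, the hedgehog signal transducer, at 0.19 ± 0.082, and Gas1, a hedgehog co-receptor, at 0.39 ± 0.20, with adjusted p values of 0.465 and 0.53. Shh itself differed by -0.08 ± 0.19, its target genes Gli1 and Ptch1 by -0.03 ± 0.28 and -0.05 ± 0.26, and Nkx2-1, the homeobox gene of the medial ganglionic eminence, by 0.13 ± 0.19; these were named after their values were seen. The intervals are wide for the dim genes of this list, and a missed threshold does not show equal levels.

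Related factors were mixed in sign. Among basic helix-loop-helix genes 6 of 8 were tested and 0 passed (limma; 0 lower and 2 higher at an unadjusted p under 0.05), with a median of 0.20. Ptf1a, a factor of GABAergic neurons, had levels between -4.43 and -3.49 in controls and between -2.66 and -2.06 in cKO-labelled arrays, a difference of 1.54 ± 0.24 (limma adjusted p = 0.0994), and Neurog1 differed by 0.43 ± 0.15 (adjusted p = 0.385). Olig3, the third gene of the Olig family, differed by 0.88 ± 0.68. Of the 4 tested Sox9, Sox5, Sox6 and Sox13 genes 0 passed (limma; 1 lower and 0 higher at an unadjusted p under 0.05). Sox6, which holds precursors undifferentiated and is also used by interneurons, differed by -0.64 ± 0.11 (adjusted p = 0.221) with 2 of 3 cKO-labelled arrays and 3 of 4 controls measured, and Sox13 by 0.34 ± 0.27.

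Genes known to restrain the oligodendrocyte fate were read from a list of 10, of which 9 were tested. None passed (limma; 0 lower and 2 higher at an unadjusted p under 0.05), and the median was 0.10. Zfp24, a zinc finger gene on this list that is known for a role in myelination and not as a restraint, differed by 0.39 ± 0.11, with no control as high as any cKO-labelled array, and Hes1, an effector of Notch, by 0.58 ± 0.17 (limma adjusted p = 0.295 and 0.314). Endothelial markers (7 tested, median -0.15, smallest p Robo4 at -0.41 ± 0.18 and Tie1 at -0.32 ± 0.24) and microglial markers (6 tested, median 0.02, smallest p Aif1 at 0.24 ± 0.23 and P2ry12 at 0.25 ± 0.28) had 0 past the threshold and 0 at an unadjusted p under 0.05.

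The dissection was checked on its markers. Of 10 subpallial markers 9 were tested and Zic1 was under the filter. Lhx8, which encodes a LIM homeodomain factor of cholinergic neuron precursors, fell by 2.03 ± 0.17 on the log2 scale (limma adjusted p = 0.0169). It was the 1 marker past the threshold. At an unadjusted p under 0.05 (limma), 4 were lower and 0 higher, against 6.78% and 4.3% of all genes tested. The median of the 9 was -0.27. In 6 of them all cKO-labelled arrays lay below all controls, as in 7.26% of all genes tested. This list too was drawn up with earlier results of these arrays known, so these counts are a description. Lhx6, which encodes a LIM homeodomain factor of cortical interneuron precursors and was named after its values were seen, differed by -1.18 ± 0.15 (limma adjusted p = 0.0515). The summed level of the 9, in multiples of the array's 75th percentile, ran from 110.5 to 121.4 in controls and from 95.8 to 108.6 in cKO-labelled arrays. This was not particular to subpallial markers. The sum of 5 cortical markers ran from 29.4 to 36.8 and from 22.0 to 24.6. That of the 8 neuronal markers ran from 187.3 to 209.2 and from 159.8 to 181.2. The neural crest sum was also lower without overlap, while the endothelial, microglial and mesenchyme sums overlapped. The part of these tissue markers in the Olig1 and Olig2 values was not tested. Cortical markers were also present: 6 were tested and 0 passed (limma; 2 lower and 1 higher at an unadjusted p under 0.05), with the smallest p values for Neurod6 at -0.76 ± 0.16 and Emx2 at 0.56 ± 0.12. The mesenchyme list had 0 past the threshold (limma; 1 lower and 0 higher at an unadjusted p under 0.05) and a median of -0.40, with the smallest p values for Cspg4, given above, and Dcn at -2.71 ± 1.85 over 5 arrays. Of the neural crest list 3 were tested and 0 passed (limma; 1 lower and 0 higher at an unadjusted p under 0.05), with Ednrb at -0.27 ± 0.086 and Gfra3 at -0.16 ± 0.19.

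The genes whose levels over the 7 arrays were most like those of Olig1, among 12672 compared, were Rftn2, C1qtnf12, Prdm16, Rtn2 and Megf11, with Pearson r between 0.978 and 0.985. Prdm16, whose product is a transcription factor with zinc fingers active in radial glia, had levels of 1.98, 1.24, 1.26 and 1.99 in the 4 controls and -1.52, -1.29 and -1.24 in the 3 cKO-labelled arrays. For Olig2 they included Gtf3c1, Map1lc3b, Pknox2 and Lhx8, with r between 0.982 and 0.991. All 9 named here had negative differences, from -2.97 for Prdm16 to -0.20 for Map1lc3b. Their sign follows from the choice, since the levels of Olig1 and Olig2 vary mostly between the labels. Olig1 and Olig2 themselves had an r of 0.92 and a rho of 0.54 over the 7 arrays, but r was -0.71 for their deviations from the group means, in which cKO replicate 2 was the highest of its group for Olig1 and the lowest for Olig2.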

How the data were processed

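Per the labels' protocols, total RNA of 7 embryos was amplified, given Cy3 and measured on Agilent whole mouse genome arrays. The authors deposited scanner files of spot intensity, background-subtracted and detrended within each array by Agilent Feature Extraction 10.7.3.1 per the file headers (10.5 per the submitters' processing notes), with no normalization between arrays. They also deposited a table of log2 values that served as an alternative; no label or header states its scale.

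Control spots and outlier spots were left out. Each processed signal was scaled to the 75th percentile of its array, floored at a log2 value of -7.49 and taken to log2, and spots of a probe were averaged. The share of spots well above background ran from 68.4% to 72.2%, none was saturated, and the number of arrays limits the precision. Arrays correlated at 0.98 or higher. Probes were named through RefSeq accessions (GRCm38.p6, names and order only): 24844 of 41174 probes had 1 symbol, 0 had several and 16330 none. A gene is its brightest probe, tested if well above background on at least 3 arrays with at least 2 values per group. Groups were compared with limma 3.58.1 in R 4.3.3 (group only; threshold 0.05), tested on simulated data beforehand. The scanner files hold no mean signal, so normexp (offset 50) used the median signal. Alternatives covered background, normalization, filter, floor, probe rule, variance model, slide, litter, replicate number and leaving out each array. Named genes were all members, and members of each list past the threshold or else the 2 with the smallest p. Also named were the 5 genes most like Olig1 and Olig2 and the 3 nearest genes with a named probe on each side of them. Some genes this rule names are not reported here. Members and lists were chosen with earlier results of these data known.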

Additional observations from a re-analysis of the deposited data

Results flagged for a closer look

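Of the member probes well above background on the controls, 1 had a control array far from the other 3. The Gpr17 level of control replicate 1 was -1.23, while the nearest other control stood at -0.66, a gap of 0.885 of the whole control range. The criterion was Dixon's critical value for 4 samples, which chance passes in about 1 in 20 groups, and 10 probes were examined.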

How the results depend on the processing

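The number of arrays limits the precision, and every direction rests on the labels. Olig1 kept its direction in all 26 alternatives and its call in 17, with differences from -1.53 to -1.33 and adjusted p from 0.00238 to 0.946. It lost the call in smaller or more heavily blocked fits. The differences there were -1.51 within slide 1 (which has 1 cKO-labelled array), -1.40 within slide 2 and -1.49 with litter as a block and within litter 2. With the replicate block the difference was -1.40 (limma adjusted p = 0.333). The litter block and the fit within litter 2 rest on the same arrays, so they are not separate results among the 26. Leaving out 1 array gave -1.53 to -1.38 for Olig1 and -0.81 to -0.67 for Olig2. Olig2 kept its direction in all 26 and passed in 4: normexp -0.74, authors' value table -0.76, variance trend -0.74 and array weights -0.70. Members called lower were 2 in these 4, 0 in the blocked and within-slide or within-litter fits named above (limma; 3 to 5 at an unadjusted p under 0.05), and 0 to 1 without 1 array. Olig1 minus Olig2 stayed between -0.86 and -0.57 without 1 array. Over all genes, limma called 16 lower and 12 higher; these counts were 30 and 16 with normexp, 25 and 16 in the authors' table, 35 and 16 with the trend, 42 and 18 with weights, 17 and 7 under quantile normalization, 13 and 7 without a floor, 12 and 7 with the mean of probes, 11 and 6 with slide as a block, and 7 and 4 without the filter. They were 0 and 0 with the replicate or litter block, within a slide or litter 2, and without control replicate 2, 3 or 4 or cKO replicate 3 (186 to 1322 lower over all alternatives at an unadjusted p under 0.05). They were 8 and 4 without control replicate 1, 18 and 7 without cKO replicate 1, and 2 and 1 without cKO replicate 2. The replicate numbers are not shown to pair the arrays, since the deviations of same-numbered arrays correlated at 0.11, -0.53 and 0.03. The cause of these shifts was not tested.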
